A study of Rattus norvegicus with 23 samples.

Results

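The genes described here are 10 precursors of neuropeptides made by neurons of the area postrema, Cartpt, Tac1, Nmu, Npy, Penk, Cck, Gal, Sst, Adcyap1 and Calca. They were picked by name, with earlier results of these data known. Every probe set of the Affymetrix Rat Genome 230 2.0 array annotated with 1 of these genes as single symbol was taken, whatever its signal. This gave 13 probe sets for the 10 genes, out of 31042 probe sets that are not array controls, which cover 14217 genes with a single symbol. Adcyap1 was represented by 2 probe sets, Calca by 3 and each of the other 8 genes by 1.

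RNA of the area postrema of male rats was hybridised to 23 arrays, and each array holds RNA pooled from 5 animals. Spontaneously hypertensive rats (SHR, 5 arrays), an inbred strain with high blood pressure, were set against Wistar Kyoto rats (WKY, 5 arrays), the usual normotensive comparison strain. Both strains were 10 to 13 weeks old and untreated as far as the labels say. Sprague Dawley rats of 10 to 12 weeks were dehydrated for 72 h (4 arrays), food-restricted for 48 h and labelled as fasted (5 arrays), or left as controls (4 arrays). Blood pressure, body weight and plasma osmolality of the animals were not analysed here. SHR is 1 inbred strain and WKY another, so a difference between them is a difference between 2 strains.

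The area postrema is a sensory organ in the floor of the fourth ventricle whose capillaries are leaky, so its neurons meet hormones, ions and toxins of the blood directly. It takes part in nausea, in satiety and in the control of fluid balance and blood pressure. Neuropeptides are cut from larger precursors in the secretory pathway, stored in dense-core granules and released onto G protein-coupled receptors, so the mRNA of a precursor is a measure of the capacity to make the peptide and not of its release.

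Values are signals on a linear scale, already scaled by the authors so that the trimmed mean of every array was 100. Differences are on the log2(signal + 16) scale, tested with limma and adjusted over 18625 probe sets by the Benjamini-Hochberg method with a threshold of 0.05, and folds are computed on the same scale. A signal depends on the probes, so no gene's level is set against another's. In a bulk sample, fewer cells of a type and less RNA per cell cannot be told apart.

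The tissue label was set beside 16 markers of area postrema neurons, of which 12 had a probe set with a single symbol. No other tissue was measured, so these signals do not settle the label. The calcitonin receptor gene Calcr averaged 140.1 in SHR, 111 in WKY, 125 in dehydrated, 111 in fasted and 124.5 in control arrays, and the calcium-sensing receptor gene Casr averaged 208, 180, 272, 249 and 258 in the same order. The glutamate transporter gene Slc17a6 was at least 536 on every array. Several markers were dim, near or below the array medians of 39.81 to 44.48. The GLP-1 receptor gene Glp1r had 19.5 to 49.3 over all arrays, Htr3a 11.4 to 29.1 and Avpr1a 24.3 to 52.7. Of the 11 tested genes of this list, 0 passed the threshold in any of the 4 comparisons, which compare groups and do not check the tissue label. Choroid plexus and ependyma markers, by contrast, summed to between 596 and 8230 on dehydrated, 301 and 6717 on fasted and 512 and 6864 on control arrays, but only to between 203 and 315 on SHR and 222 and 389.6 on WKY arrays. Most of the mean sum in Sprague Dawley arrays came from the single gene Ttr. It averaged 3817 in dehydrated, 1547 in fasted and 2084 in control arrays, against 78.8 in SHR and 103 in WKY. Folr1, Kl and Otx2 also averaged higher in the Sprague Dawley groups. Kcnj13 averaged 19.5 to 24.6 over all groups, and Foxj1 averaged lower in the Sprague Dawley groups. Gapdh signal at the 3′ control probe set over that at the 5′ one, a measure of RNA integrity given as a log2 ratio, was 0.0412 to 0.405 in SHR and 0.0305 to 0.206 in WKY, and 0.214 to 0.681 in dehydrated, 0.178 to 0.258 in fasted and 0.209 to 0.571 in control arrays. Dehydrated array 1 stood apart from the other dehydrated arrays in Gal, Sst and both Adcyap1 probe sets, and the differences of these genes from control are given with and without it for the brighter probe set of each.

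Promoter windows from RefSeq, build GRCr8, were found for 8 of the 10 genes, all but Penk and Cck. The windows are shown for the 3 genes that differed in a comparison, Cartpt, Tac1 and Nmu, and for Gal, whose signal moved opposite to that of Cartpt from array to array. Each window runs from 250 bases before to 50 bases after a transcription start site, 5′ to 3′ on the strand of the gene. Capitals mark matches, on either strand, to 4 motifs: the cAMP response element TGACGTCA, its core TGACG, the E-box CACGTG and the AP-1 motif TGANTCA.
Cartpt, chr2:32991186-32991485, minus strand: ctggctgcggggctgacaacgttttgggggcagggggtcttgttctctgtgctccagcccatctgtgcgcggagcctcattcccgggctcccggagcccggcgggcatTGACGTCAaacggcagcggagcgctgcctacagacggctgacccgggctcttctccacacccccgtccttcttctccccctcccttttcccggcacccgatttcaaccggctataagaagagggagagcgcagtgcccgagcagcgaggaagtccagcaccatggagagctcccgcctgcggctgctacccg
Tac1, chr4:36645333-36645632, plus strand: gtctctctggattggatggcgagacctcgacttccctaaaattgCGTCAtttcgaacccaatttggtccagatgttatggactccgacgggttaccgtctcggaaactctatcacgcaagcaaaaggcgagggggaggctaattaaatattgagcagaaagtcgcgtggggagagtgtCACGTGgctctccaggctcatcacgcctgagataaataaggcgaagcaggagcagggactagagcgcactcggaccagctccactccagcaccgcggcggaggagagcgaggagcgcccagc
Nmu, chr14:32198693-32198992, plus strand: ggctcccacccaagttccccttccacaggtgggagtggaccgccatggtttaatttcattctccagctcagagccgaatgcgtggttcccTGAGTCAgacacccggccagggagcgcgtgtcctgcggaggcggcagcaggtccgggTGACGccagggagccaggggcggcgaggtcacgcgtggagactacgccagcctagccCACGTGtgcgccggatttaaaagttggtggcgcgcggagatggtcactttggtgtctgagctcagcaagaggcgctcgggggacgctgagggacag
Gal, chr1:210084523-210084822, minus strand: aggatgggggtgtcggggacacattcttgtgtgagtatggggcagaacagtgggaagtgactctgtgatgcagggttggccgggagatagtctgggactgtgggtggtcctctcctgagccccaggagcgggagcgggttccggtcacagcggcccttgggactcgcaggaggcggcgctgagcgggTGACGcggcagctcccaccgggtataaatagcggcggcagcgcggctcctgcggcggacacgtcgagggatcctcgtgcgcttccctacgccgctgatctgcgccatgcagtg

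The start site of the Cartpt window lies 559 bases inside the annotated 5′ end of the gene, that of Tac1 239 bases inside and that of Nmu 154 bases inside, while that of Gal coincides with it. The Cartpt window holds a full cAMP response element whose first base is at position -142 from the start, a motif found in 1.83% of 33469 such RefSeq windows. The Tac1 window holds the core on the opposite strand at -206 and an E-box at -72. The Nmu window holds an AP-1 match at -160, the core at -103 and an E-box at -46, and the Gal window the core at -63. The core occurs in 21.2% of all windows, the E-box in 6.42% and the AP-1 motif in 7.33%. Of the windows not shown, that of Sst holds a full cAMP response element, and that of Calca the core at -112. The Sst element is at position 3 counted from the annotated 5′ end of the gene, and that annotation was not checked here. No match was found in the window of Npy. The Adcyap1 window, also without a match, lies 12623 bases inside the annotated 5′ end of its gene, so it does not cover that end. These are matches of letters, and binding at them was not measured.

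The first comparison asked how the area postrema of the hypertensive strain differs from that of WKY. Of the 12 probe sets of the 10 genes that passed the filter on dim signals, 2 differed between SHR and WKY, against 5.06% of all 18625 probe sets. Cartpt was higher in SHR (2.17% of all probe sets were) and Tac1 was lower (2.88%). Unadjusted p-values under 0.05 in limma were found for 3 of the 12, the third being Nmu, against 17.2% of all probe sets. The median difference of the 12 probe sets was 0.05, against 0.01 over all probe sets, and 6 of the 12 were above 0.

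Cartpt encodes the precursor of CART peptide, which lowers food intake when given into the rat brain. Its signals were 2035, 2141, 1849, 2227 and 1913 on the SHR arrays, against 1478.5, 1515, 1408, 1416 and 1421 on the WKY arrays. Every SHR array was above every WKY array. A separation of these groups, in either direction, was seen in 6.33% of all probe sets. The means were 2033 ± 156 in SHR and 1448 ± 46.9 in WKY (SD, n = 5 each). The difference was 0.48 on the log2 scale (SE 0.056, 95% confidence interval 0.36 to 0.60), or 1.40-fold higher in SHR, with an adjusted p of 2.2e-05 in limma. It stayed between 0.45 and 0.52 in all 21 alternative settings, which include leaving out each array in turn.

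Tac1 encodes the precursor of the tachykinins substance P and neurokinin A. Its signals were 108, 155, 143, 144 and 131 on the SHR arrays, against 289, 318, 218, 235 and 242 on the WKY arrays. The groups did not overlap, and the brightest SHR array was well below the dimmest WKY array. Mean signals were 136 ± 18.0 in SHR and 260.2 ± 41.6 in WKY (SD, n = 5 each). The difference was -0.86 on the log2 scale (SE 0.103, 95% confidence interval -1.07 to -0.64), or 1.81-fold lower in SHR, with an adjusted p of 4.08e-05 in limma. It ran from -0.93 to -0.69 over the 21 alternatives, and its adjusted p did not exceed 0.00115.

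Nmu and Cck missed the threshold between the strains. Nmu encodes neuromedin U, a peptide that reduces feeding and raises stress responses in rodents, and its signals were 144.5, 141, 184, 190.1 and 229 on the SHR arrays against 143, 129, 147, 142 and 138 on the WKY arrays. The SHR arrays 3, 4 and 5 were above all WKY arrays and the SHR arrays 1 and 2 were among them. The difference was 0.30 (SE 0.104), with an adjusted p of 0.127 in limma. Cck, the precursor of the satiety peptide cholecystokinin, averaged 590 ± 134 in SHR and 481 ± 39.0 in WKY (SD, n = 5 each), a difference of 0.26 with an adjusted p of 0.315 in limma. Both genes depended on SHR array 2: without it the difference was 0.37 for each, with adjusted p-values of 0.0396 for Nmu and 0.0357 for Cck in limma, while over all alternatives these ran from 0.0396 to 0.342 for Nmu and from 0.0357 to 0.541 for Cck.

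**Figure D1:**
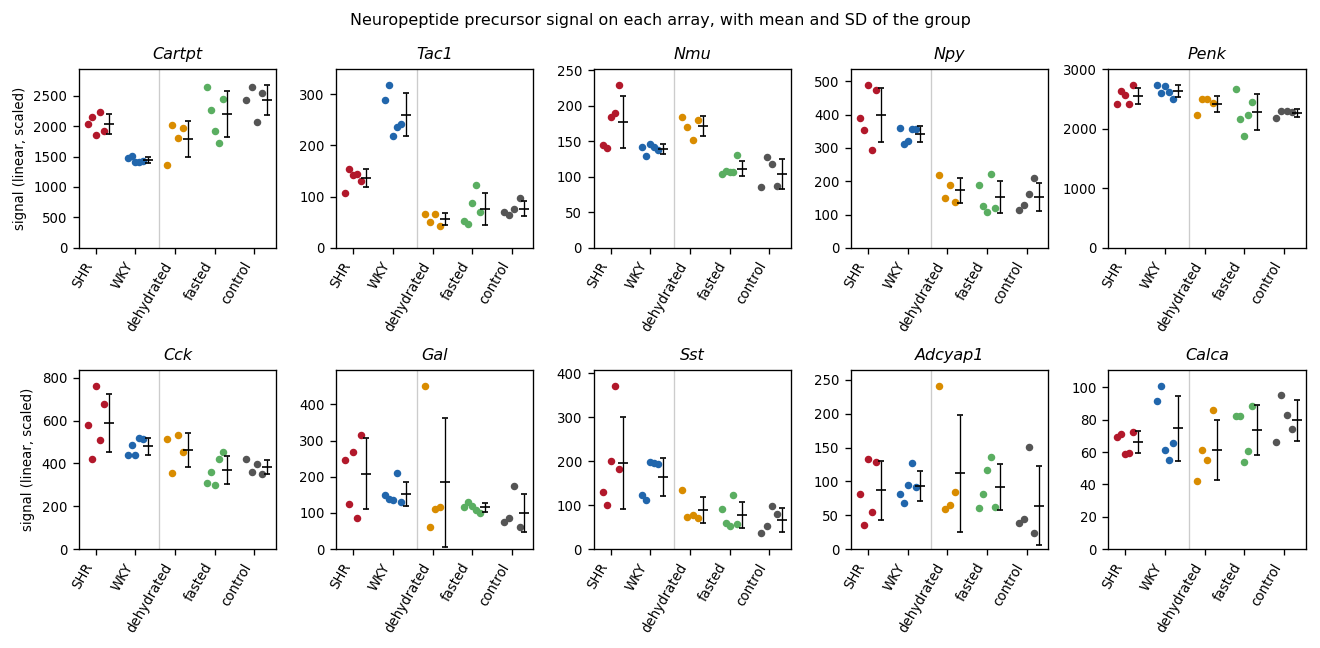
Signal (linear, scaled by the authors) of the 10 precursors on each array, 1 point per array, with the mean and SD of each group beside the points, drawn for the brightest probe set of each gene; the grey line parts the SHR and WKY arrays from the Sprague Dawley arrays. The SHR points lie above the WKY points for Cartpt and below them for Tac1, the dehydrated points lie above the control points for Nmu, and single arrays stand apart for Gal and Adcyap1.

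In the comparison of the thirsty rat with its control, 1 of the 12 probe sets, Nmu, differed between dehydrated and control Sprague Dawley rats, against 0.166% of all probe sets. It was higher after dehydration, as 0.0537% of all probe sets were. Its signals were 184, 170.5, 152 and 179.7 on the dehydrated arrays, against 86.4, 128, 118 and 87.1 on the control arrays. All dehydrated arrays were above all control arrays. A separation of these groups, in either direction, was seen in 6.68% of all probe sets. The means were 171.5 ± 14.0 in dehydrated and 105 ± 21.2 in control rats (SD, n = 4 each). The difference was 0.65 (SE 0.114, 95% confidence interval 0.41 to 0.89), or 1.57-fold higher after dehydration, with an adjusted p of 0.0164 in limma.

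The size of the Nmu difference was steadier than its call. It lay between 0.49 and 0.74 over the 21 alternatives, but its adjusted p ran from 0.00794 to 0.147. The call was lost without control array 1 (0.58, adjusted p = 0.0663 in limma), control array 4 (0.58, adjusted p = 0.109), dehydrated array 1 (0.62, adjusted p = 0.0696) or dehydrated array 2 (0.65, adjusted p = 0.0582). It was also lost without the trend and robust options of the test (0.65, adjusted p = 0.0568) and with only the control arrays 3 and 4 (0.67, adjusted p = 0.147), whose label text is that of the treated arrays.

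Cartpt was the other gene whose dehydrated and control arrays did not overlap. Its signals were 1369, 2017, 1798 and 1974 on the dehydrated arrays, against 2425, 2646, 2074 and 2543 on the control arrays. The difference was -0.44 (SE 0.136, 95% confidence interval -0.73 to -0.16), with an unadjusted p of 0.00482 and an adjusted p of 0.214 in limma, so it did not pass the threshold. Without dehydrated array 1, the lowest of the group, it was -0.32.

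None of the other 10 tested probe sets passed at an unadjusted p under 0.05, which 11.7% of all probe sets did. Cck averaged 463 ± 78.7 in dehydrated and 383.5 ± 33.0 in control rats (SD, n = 4 each), a difference of 0.25 with an adjusted p of 0.463 in limma. Tac1 signals were 66.0, 51.6, 66.3 and 42.4 on the dehydrated arrays, against 69.5, 65.1, 75.3 and 96.9 on the control arrays. These groups overlapped, and the difference was -0.36 with an adjusted p of 0.503 in limma. Over all 12 probe sets the median difference was 0.18, against -0.01 over all probe sets tested, and 8 were above 0.

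In the comparison of the hungry rat with its control, 0 of the 12 probe sets differed between fasted and control rats in limma, and 0 had an unadjusted p under 0.05. The background was 0.0215% of all probe sets called and 7.19% with an unadjusted p under 0.05. Cartpt signals were 2646, 2259, 1918, 1716 and 2435 on the fasted arrays, spread on both sides of the lowest control array. The difference from control was -0.15 (95% confidence interval -0.43 to 0.12), with an adjusted p of 0.834. Npy, the precursor of neuropeptide Y, which stimulates feeding, averaged 153 ± 49.2 in fasted (n = 5) and 154 ± 41.6 in control rats (n = 4; SD). Its difference was -0.02, with a 95% confidence interval of -0.46 to 0.42 and an adjusted p of 0.993 in limma.

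Nmu signals after fasting were 105, 109, 107, 106.5 and 131, within the range of the control arrays except for the brightest. The difference was 0.09 (95% confidence interval -0.13 to 0.32), with an adjusted p of 0.895 in limma. The interval that was tightest belonged to Penk, the precursor of the enkephalins, with -0.17 to 0.17 around a difference of -0.00. Those of Gal and of the brighter Adcyap1 probe set were wide, -0.74 to 1.27 and -0.45 to 1.66, and a 2-fold difference lies inside both. The groups overlapped for all 12 probe sets, against 2.32% of all probe sets without overlap.

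Set directly against fasting, dehydration gave 0 of 12 calls in limma, against 0.0322% of all probe sets. An unadjusted p under 0.05 was found for Cartpt, Nmu and Cck, against 10.0% of all probe sets. Nmu was the only member whose dehydrated and fasted arrays did not overlap (3.23% of all probe sets), with a difference of 0.56 (SE 0.108, 95% confidence interval 0.33 to 0.78) and an adjusted p of 0.100. In a fit of only these 2 groups its adjusted p was 0.0399, within a range of 0.0399 to 0.62 over the alternatives. Cck averaged 463 ± 78.7 in dehydrated (n = 4) and 369 ± 66.8 in fasted rats (n = 5; SD), a difference of 0.32 with an adjusted p of 0.406 in limma. The 2 comparisons with control share the 4 control arrays, so the differences of a gene in them are not independent.

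**Figure D2:**
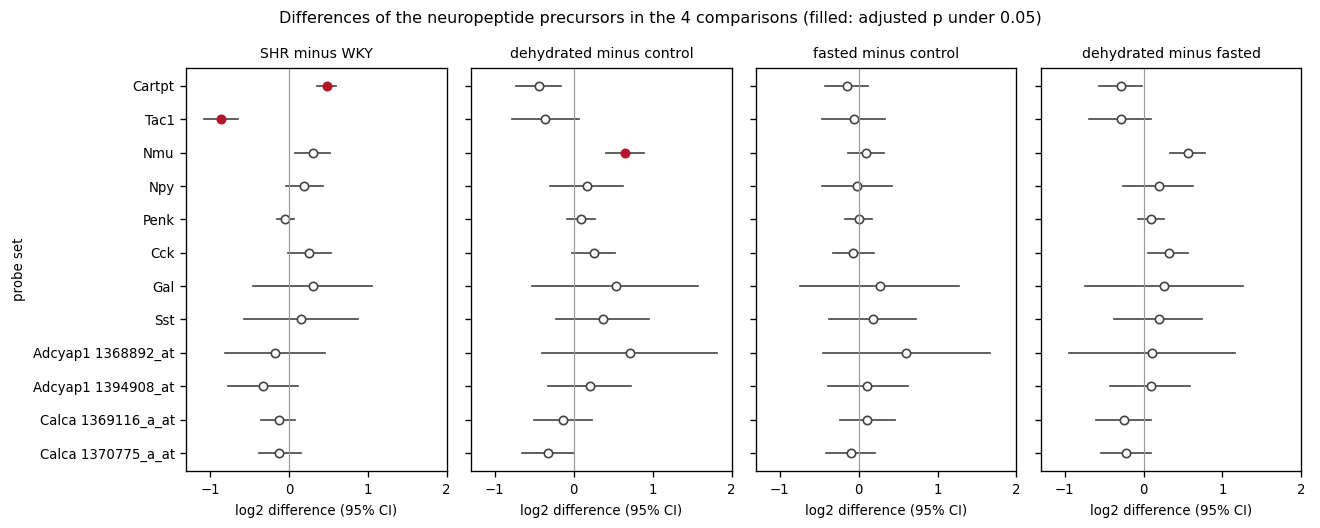
Log2 difference with its 95% confidence interval for each of the 12 tested probe sets (rows) in the 4 comparisons (panels), filled where the adjusted p was under 0.05. Filled points are Cartpt at 0.48 and Tac1 at -0.86 in SHR minus WKY and Nmu at 0.65 in dehydrated minus control, and no point is filled in the other 2 panels.

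Across the 5 groups, the order of mean signals differed from gene to gene. For Cartpt it was control, fasted, SHR, dehydrated and WKY from high to low, and the arrays of every pair of neighbours in that order overlapped. For Tac1 it was WKY, SHR, control, fasted and dehydrated, and both SHR and WKY, and SHR and control, were separated without overlap. The SHR arrays ran from 108 to 155, against 65.1 to 96.9 for Sprague Dawley controls. For Nmu it was SHR, dehydrated, WKY, fasted and control, with dehydrated and WKY arrays not overlapping. For pairs of groups from different array series, the share of all probe sets without overlap was not counted.

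Npy was also split between the array series. The dimmest of the 10 SHR and WKY arrays had a signal of 293, against 221 on the brightest of the 13 Sprague Dawley arrays. The share of all probe sets split in this way was not counted, so whether the split is unusual cannot be said. Means were 399 ± 82.0 in SHR and 342 ± 24.0 in WKY (SD, n = 5 each), and 173 ± 37.0 in dehydrated, 153 ± 49.2 in fasted and 154 ± 41.6 in control rats. Strain and array series cannot be told apart here, since every SHR and WKY array belongs to 1 series of labels and every Sprague Dawley array to the other, so these levels are a description. Within each series Npy did not pass the test: the difference was 0.19 in SHR minus WKY (adjusted p = 0.407 in limma) and 0.17 in dehydrated minus control (adjusted p = 0.813).

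Penk was the steadiest of the genes. Its means were 2552 ± 136 in SHR and 2634 ± 98.7 in WKY, and 2416 ± 126 in dehydrated, 2280 ± 299 in fasted and 2265 ± 62.0 in control rats (SD). Its largest difference in any of the 4 comparisons was 0.09, and adjusted p-values were at least 0.704 in limma. The pooled SD between arrays of a group was 0.11 on the log2 scale for Penk, against a median of 0.16 over all probe sets.

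Gal, the precursor of galanin, a peptide that inhibits many of the neurons it acts on, was among the most variable. Its signals were 247, 124, 267, 86.8 and 315 in SHR, and 148, 139, 136, 209.6 and 130.0 in WKY. They were 449.9, 60.4, 111 and 116 in dehydrated, 116, 131, 120.4, 108 and 99.7 in fasted and 75.8, 85.8, 175.5 and 62.0 in control rats. Groups overlapped throughout, and dehydrated array 1 was far above the rest of its group. The difference was 0.30 in SHR minus WKY (adjusted p = 0.726 in limma) and 0.53 in dehydrated minus control (adjusted p = 0.710), and neither was steady. Leaving out 1 array gave 0.12 (without SHR array 5) to 0.54 (without SHR array 4) in SHR minus WKY, and 0.00 (without dehydrated array 1) to 0.87 (without dehydrated array 2) in dehydrated minus control. In dehydrated minus fasted, Gal went below 0 without dehydrated array 1, at -0.27 against 0.26 with all arrays.

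Adcyap1, the precursor of the peptide PACAP, behaved in the same way at both of its probe sets, whose deviations from the group means correlated with an r of 0.83 over the 23 arrays. The brighter probe set, 1368892_at, had 80.8, 36.1, 133, 55.0 and 129 in SHR, and 81.7, 67.7, 94.5, 128 and 92.0 in WKY. It had 241, 59.0, 64.7 and 84.2 in dehydrated, 60.2, 81.7, 117, 136 and 62.6 in fasted and 38.7, 44.0, 151 and 23.3 in control rats. Dehydrated array 1 and control array 3 were the highest in their groups. The difference was 0.71 in dehydrated minus control (adjusted p = 0.612 in limma), 0.31 without dehydrated array 1 and 1.14 without control array 3 (adjusted p = 0.334), and 0.60 in fasted minus control (adjusted p = 0.830), 1.03 without control array 3 (adjusted p = 0.631). The dimmer probe set, 1394908_at, gave 0.20 and 0.11 in these comparisons, and neither passed. In dehydrated minus fasted, 1368892_at was at 0.11, and at -0.29 without dehydrated array 1.

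Sst, the precursor of the inhibitory peptide somatostatin, averaged 197 ± 105 in SHR and 164 ± 43.2 in WKY (SD, n = 5 each). In Sprague Dawley rats it averaged 88.8 ± 30.0 in dehydrated, 77.2 ± 29.9 in fasted and 66.8 ± 27.8 in control arrays. Its highest SHR array, array 4, had 370.2 and the lowest 101. The difference was 0.15 in SHR minus WKY (adjusted p = 0.874 in limma), -0.09 without SHR array 4, and 0.37 in dehydrated minus control (adjusted p = 0.626). Without dehydrated array 1, whose Sst signal was 134 against 71.5 to 77.9 on the other dehydrated arrays, dehydrated minus control gave 0.18 (adjusted p = 0.853 in limma).

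Calca gives rise to calcitonin or to the vasodilator peptide CGRP by alternative splicing, and which transcript each of its 3 probe sets reads was not settled here. Probe set 1370775_a_at had signals of 59.0 to 72.4 in SHR and 55.2 to 101 in WKY, and averaged 61.2 ± 18.4 in dehydrated, 73.5 ± 15.4 in fasted and 79.6 ± 12.6 in control rats. Probe set 1369116_a_at averaged 37.0 ± 4.2 in SHR and 42.3 ± 6.1 in WKY, and 41.6 ± 14.0 in dehydrated, 52.0 ± 11.6 in fasted and 47.0 ± 11.4 in control rats. Neither differed past the threshold in any of the 4 comparisons, with adjusted p-values of at least 0.433 in limma. The third, 1369117_at, had signals between 0.8 and 13.8 and was not tested. The probe sets did not move together: between the 2 that were tested r was 0.26 over the 23 arrays.

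The spread between arrays of 1 group set what could be seen. The pooled SD was 0.64 and 0.42 for the Adcyap1 probe sets, 0.63 for Gal and 0.48 for Sst, each larger than in at least 99.3% of the probe sets kept. Npy with 0.30 and Tac1 with 0.29 were also in the upper part of the distribution, above 96.8% and 95.9% of probe sets. Cartpt and Nmu, with 0.18 each, were close to the median of 0.16.

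**Figure D3:**
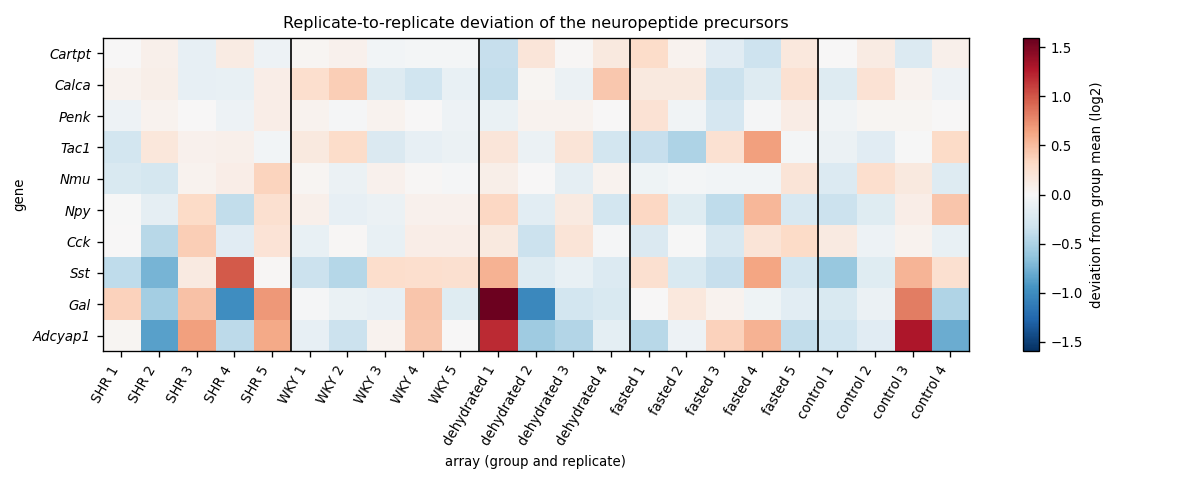
Deviation of each array (columns) from the mean of its group on the log2(signal + 16) scale, for the 10 precursors (rows, the brightest probe set of each), from blue (below) to red (above). Gal, Adcyap1 and Sst are red on dehydrated array 1, where Cartpt is blue, while Penk stays pale on nearly every array.

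Deviations from the group means were compared between the genes over the 23 arrays, 45 pairs in all, with 100000 shuffles of arrays within groups and adjustment over the pairs. By Pearson's r, 3 pairs passed, all among Cartpt, Gal and Adcyap1. Arrays with more Adcyap1 signal had more Gal signal (r = 0.84, permutation p = 0.0002, adjusted p = 0.0045; Spearman's rho = 0.84, adjusted p = 0.00472). The same arrays had less Cartpt signal: r was -0.83 between Cartpt and Adcyap1 (permutation p = 1e-05, the smallest the shuffles can give, adjusted p = 0.0004; rho = -0.85, adjusted p = 0.00135). Between Cartpt and Gal it was -0.67 (permutation p = 0.00155, adjusted p = 0.0232; rho = -0.65, adjusted p = 0.0321).

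These relations did not rest on the extreme arrays alone. Without the 2 arrays farthest from the median of the first gene of each pair, r was 0.81 for Gal and Adcyap1, -0.79 for Cartpt and Adcyap1 and -0.63 for Cartpt and Gal. Control array 3, where Adcyap1 deviated most (1.29), stayed in for each pair, but it is not among the SHR and WKY arrays. Within the 10 SHR and WKY arrays the values were 0.84, -0.89 and -0.83, and within the 13 Sprague Dawley arrays 0.85, -0.84 and -0.67, in the same order. For Cartpt and Calca rho passed (0.64, permutation p = 0.00285, adjusted p = 0.0321) and r did not (0.61, adjusted p = 0.0925).

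**Figure D4:**
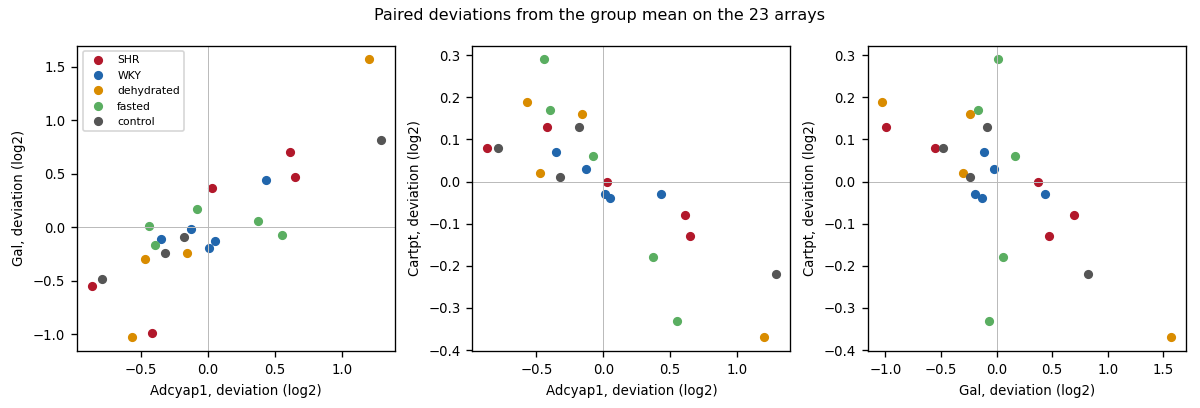
Deviations from the group mean (log2) of the paired genes, Gal against Adcyap1, Cartpt against Adcyap1 and Cartpt against Gal, 1 point per array and 23 points per panel, coloured by group. The first panel rises (r = 0.84) and the other 2 fall (r = -0.83 and r = -0.67), in each of the 2 array series.

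Marker genes of other cells moved with some of these genes from array to array. The 10 genes were set against the mean deviation of 9 marker lists, 90 relations with the same permutation test, of which 3 passed by Pearson's r. Gal followed 6 oligodendrocyte markers (r = 0.85, permutation p = 0.00145, adjusted p = 0.0435; 0.73 without the 2 farthest arrays, 0.72 within SHR and WKY and 0.92 within Sprague Dawley). Its rho was 0.67, with an adjusted p of 0.153 in the permutation test. It also followed 9 astrocyte and tanycyte markers (r = 0.68, permutation p = 0.00137, adjusted p = 0.0435; 0.79 without the 2 farthest, 0.79 and 0.63 within the series), where rho was 0.70 with an adjusted p of 0.104. Npy followed the astrocyte and tanycyte markers as well (r = 0.77, permutation p = 0.0001, adjusted p = 0.0108; rho = 0.81, adjusted p = 0.0045; 0.78 without the 2 farthest, 0.85 and 0.74 within the series).

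On dehydrated array 1 the 7 oligodendrocyte markers on the array summed to 3000.0, the highest of the dehydrated group, whose other arrays had 1601, 2158 and 1974, against 2008.5, 2269, 2660.3 and 2257 on the control arrays. Its 5 cholinergic and motor neuron markers summed to 632.5, with 527, 374 and 418.5 on dehydrated arrays 2, 3 and 4, against 315 to 425 on the control arrays. Such sums were not particular to that array: fasted array 4 had 543, and dehydrated array 2 had a sum above all control arrays. For Adcyap1, r was 0.70 with 2 cholinergic and motor neuron markers (adjusted p = 0.075 in the permutation test). It was 0.66 with the astrocyte and tanycyte markers (adjusted p = 0.0756) and 0.65 with 15 general neuron markers (adjusted p = 0.0745), and none passed. Cartpt went the other way and did not pass either. Its r was -0.72 with the cholinergic and motor neuron markers (adjusted p = 0.0948; -0.43 without the 2 farthest arrays). With the astrocyte and tanycyte markers it was -0.52 (adjusted p = 0.133), -0.91 within SHR and WKY and -0.46 within Sprague Dawley. The part of these cells in the signals of Gal, Adcyap1, Npy and Cartpt was not tested.

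Beside the strain differences of Cartpt and Tac1, markers of several other cells differed too. Of 15 general neuron markers, 1 was called (6.67%), a share close to the 5.06% of all probe sets. It was Thy1, a neuronal surface protein gene, and it was lower in SHR. Thy1 averaged 252 ± 14.9 in SHR and 404 ± 43.2 in WKY (SD, n = 5 each), a difference of -0.64 with an adjusted p of 1.85e-05 in limma. The summed signal of the 15 markers was 11030.1 to 12250 on the SHR arrays and 11497.5 to 12092 on the WKY arrays, which overlap. Of the 2 cholinergic and motor neuron markers tested, Prph was higher in SHR (0.73, adjusted p = 0.000102 in limma; 0.256 with all 23 arrays in 1 model), and the 5 on the array summed to 378 to 429 in SHR and 331 to 388 in WKY. The Prph call held with each array left out in turn.

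Of 8 microglia markers 3 were called (37.5%, against 5.06% of all probe sets), all lower in SHR. They were C1qa (-0.35), Aif1 (-0.39) and C1qc (-0.41), with adjusted p-values of 0.00778, 0.027 and 0.0321 in limma. The 8 summed to 1465 to 1995 in SHR and 2044 to 2305 in WKY. The Aif1 call was lost without any of SHR arrays 3, 4 and 5 or WKY arrays 1, 2 and 5, and the C1qc call without any of SHR arrays 2, 3, 4 and 5 or WKY arrays 1, 2 and 5. Of 7 fibroblast and meninges markers 2 were called (28.6%), both lower in SHR. They were Col1a2 (-0.67, adjusted p = 0.00153 in limma) and Igf2 (-0.53, adjusted p = 0.00462). The 7 summed to 2476 to 3077 in SHR and 3203 to 5741 in WKY. No tested marker of astrocytes and tanycytes, oligodendrocytes, endothelium and pericytes or choroid plexus and ependyma passed, and the 9 lists gave 0 calls in limma in the other 3 comparisons. The part of these cells in the Cartpt and Tac1 differences was not tested.

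With 0 single markers called, the summed general neuron markers still lay higher after dehydration, at 13286, 11970.0, 12172 and 13013 on the dehydrated arrays against 11618, 11455, 11625 and 11402 on the control arrays, which do not overlap. Of these 15 genes 12 had differences above 0, with a median of 0.14 against -0.01 over all probe sets. Of 7 fibroblast and meninges markers 1 was above 0, with a median of -0.35, and their sums overlapped, at 3617.5 to 6176 on the dehydrated arrays and 4751 to 8168.5 on the control arrays. The part of these shifts in the higher Nmu and Vgf signals after dehydration was not tested.

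The receptors of these peptides were followed as well. Of 33 receptor genes listed, 31 were on the array with a single symbol and 16 passed the filter in each fit (Oprk1 only among the SHR and WKY arrays, Sstr4 only among the Sprague Dawley arrays), and 0 of those tested differed in any of the 4 comparisons in limma. In SHR minus WKY 14 of the 16 were above 0, with a median of 0.12 against 0.01 over all probe sets. The neuropeptide Y receptor gene Npy1r averaged 76.1 ± 4.0 in SHR and 60.7 ± 7.5 in WKY (SD, n = 5 each), a difference of 0.27 that missed the threshold with an adjusted p of 0.0948 in limma. Tacr1, the receptor gene for substance P, averaged 70.1 ± 8.5 in SHR and 66.8 ± 8.7 in WKY, a difference of 0.06 with a 95% confidence interval of -0.15 to 0.26 and an adjusted p of 0.833.

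Adcyap1r1, the PACAP receptor gene, averaged 1001 ± 49.4 in SHR and 892 ± 118 in WKY (SD, n = 5 each), a difference of 0.17 with an adjusted p of 0.251 in limma. It averaged 1368 ± 117 in dehydrated and 1209.5 ± 137 in control rats (SD, n = 4 each), a difference of 0.18 with an adjusted p of 0.419. The somatostatin receptor gene Sstr2 averaged 31.3 ± 5.9 in dehydrated and 40.2 ± 5.9 in control rats, a difference of -0.25 with an adjusted p of 0.501. The receptor genes Nmur2 for neuromedin U, Npy2r, Oprm1 for opioid peptides, Galr1 for galanin and Calcrl, the partner of Ramp1 in the CGRP receptor, were below the filter on dim signals and were not tested. Cckar was not listed with a single symbol.

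Genes that process and store peptides did differ in places. Of 21 listed, 19 were tested, and between SHR and WKY 1 was higher and 2 were lower (15.8% of the 19, against 5.06% of all probe sets). Cadps2, which primes dense-core granules for release, averaged 81.5 ± 6.1 in SHR and 56.5 ± 9.0 in WKY (SD, n = 5 each), a difference of 0.43 with an adjusted p of 0.0104 in limma. The granule protein gene Chgb averaged 920 ± 42.9 in SHR and 1073 ± 59.8 in WKY, a difference of -0.22 with an adjusted p of 0.025. Pam, the enzyme that amidates the carboxyl end of peptides, averaged 794 ± 26.7 in SHR and 903 ± 30.4 in WKY, a difference of -0.18 with an adjusted p of 0.0406. The Chgb call was lost when any of SHR arrays 1, 3 and 5 or WKY arrays 2, 3 and 4 was left out, and the Pam call when any array other than SHR array 2 was, with adjusted p-values up to 0.0702 and 0.109.

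Between dehydrated and control rats 1 of the 19 processing and granule genes differed (5.26%, against 0.166% of all probe sets). It was Vgf, a granule protein that is itself a peptide precursor, with 513 ± 27.9 in dehydrated and 344 ± 49.5 in control rats (SD, n = 4 each). The difference was 0.57 (SE 0.094), or 1.48-fold higher after dehydration, with an adjusted p of 0.0148 in limma. The call was lost without control array 4 (0.47, adjusted p = 0.0612), without dehydrated array 1 (0.54, adjusted p = 0.0529) and without the trend and robust options (0.57, adjusted p = 0.0711), and over all alternatives the adjusted p ran from 0.00573 to 0.0711. Among 47 other peptide precursors listed, 38 were on the array with a single symbol, 18 were tested in SHR minus WKY and 17 in the other comparisons, and 0 passed in limma.

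Single arrays stood far apart in these other precursors. The 38 on the array summed to 6429 on SHR array 4, against 1600.2 to 2993 on the other SHR arrays, and to 4969 and 4282 on dehydrated arrays 1 and 2, against 1919.5 and 1978 on dehydrated arrays 3 and 4. SHR array 4 and dehydrated array 1 also had the highest Sst signals of their groups. Dehydrated array 2 did not: its Sst signal was 72.3, with 77.9 and 71.5 on dehydrated arrays 3 and 4. The vasopressin and oxytocin precursor genes, named after their values were seen, were uneven within groups: Avp averaged 747 ± 631 in dehydrated and 106 ± 42.2 in control rats, and Oxt 919 ± 881 in dehydrated and 106 ± 72.9 in control rats (SD, n = 4 each). The differences were 2.17 for Avp (95% confidence interval 0.68 to 3.66, adjusted p = 0.258 in limma) and 2.34 for Oxt (0.52 to 4.16, adjusted p = 0.313), and their part in the Sst signals was not tested.

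For each gene the 3 other genes with the most alike pattern were looked up among 10203 candidates, by Pearson's r over the 23 arrays after removing the mean of each array series. For Nmu these were Bdnf (r = 0.85), the gene of the growth factor BDNF, Cryzl1 (r = 0.83) and Ccnc (r = 0.79). For Cartpt they were Nuak2 (r = 0.83), Eci2 and Dnajc15 (r = 0.81 each), and for Tac1 Sned1 (r = 0.79), Ezr (r = 0.77) and Kcna5 (r = 0.76). For Gal they were Luzp2 and Bcan (r = 0.85 each) and the myelin gene Mobp (r = 0.84), and for Adcyap1 Fgfr3 (r = 0.86), Tppp and Ndp (r = 0.83 each).

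For Npy they were Tubb4b and Clu (r = 0.81 each) and Tagln3 (r = 0.76), for Sst Miga1 (r = 0.82), Anks1b (r = 0.79) and Acat2 (r = 0.76), and for Cck Utp14a (r = 0.74), Nrsn1 (r = 0.73) and Coq4 (r = 0.71). Penk had the least alike ones, Resp18 (r = 0.74), Nop14 and Atp6ap1l (r = 0.66 each), and Calca had C7h8orf82 (r = 0.78), Shisal1 and Bbln (r = 0.77 each). Each is the top of a search over many genes on the same arrays, so the values describe these arrays and carry no test.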

How the data were processed

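Area postrema RNA pools were measured on 23 arrays. Per the labels, tissue was kept in RNAlater, RNA was extracted with QIAzol and RNeasy columns, and a MessageAmp II kit made the amplified RNA. The authors deposited linear intensity signals, computed with GCOS 1.2 per the submitters' processing notes, and no settings of that software were at hand. On every array the mean without the outer 2% at each end was 100, with medians of 39.81 to 44.48, so the signals were used as they are. Dim signals carry background, and the number of arrays limits the precision. Of 31099 probe sets, 57 are array controls, 20826 have 1 gene symbol, 436 several and 9780 none. A filter on dim signals at the 40th percentile of mean log2(signal + 16) kept 18625 probe sets for each model.

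The 10 SHR and WKY arrays entered 1 model and the 13 Sprague Dawley arrays another. Two-sided limma tests (version 3.58.1 in R 4.3.3, lmFit, then eBayes with the trend and robust options) were adjusted by the Benjamini-Hochberg method over all probe sets kept. The procedure was also tested on simulated data with known shifts in independent normal noise. That noise holds no arrays that stand apart, so the simulation does not cover such arrays. Groups were read from sample titles; 0 columns had no sample. Because arrays are pools, p-values measure the spread between pools. Deviations of same-numbered arrays correlated weakly over the probe sets kept. Correlations were -0.171 to 0.056 among Sprague Dawley arrays and -0.002 to 0.28 between SHR and WKY, with 0.28 for arrays 2 and 0.162 for arrays 1. Numbers were not used as pairs in the main tests, and a replicate block is among the alternatives. The members and gene lists were chosen with earlier results of these data known. Named genes are all member probe sets, up to 3 called genes per list and comparison, 10 receptor genes whatever their result, and the 3 genes most alike each member. Summaries, permutation tests and plots were made in Python (3.11.15), using pandas (2.3.3) and numpy (2.4.6), with scipy (1.17.1) for statistics and matplotlib (3.10.9) for drawing.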

Additional observations from a re-analysis of the deposited data

Results flagged for a closer look

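Within groups of 4 or 5 arrays, a single array far from the nearest of the others was looked for with Dixon's test, on the signal of each probe set. Of 65 groups, 10 had such an array. Chance alone gives about 1 in 20 where values are normal and independent. Linear signals need not be normal, and the groups share arrays, so the count is a description and no excess over chance is claimed.

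Dehydrated array 1 was the far array in 5 of these 10 cases. Its Gal signal was 449.9, against 60.4 to 116 on the other dehydrated arrays. Its Sst signal was 133.7, against 71.5 to 77.9. Its Adcyap1 signals were 240.6 at 1368892_at, against 59.0 to 84.2, and 70.7 at 1394908_at, against 21.5 to 22.6. At Calca 1369117_at it had 3.3, against 0.9 to 1.3, which is below the filter on dim signals.

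Control array 3 had 151.0 at Adcyap1 1368892_at, against 23.3 to 44.0 on the other control arrays. WKY array 4 had 209.6 for Gal, against 130.0 to 148 on the other WKY arrays, and WKY array 1 had 13.8 at Calca 1369117_at, against 2.2 to 3.1. Fasted array 5 had 130.6 for Nmu, against 105 to 109 on the other fasted arrays. Fasted array 4 was low at Calca 1369116_a_at, with 31.7 against 54.8 to 60.6.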

How the results depend on the processing

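The Cartpt and Tac1 calls between SHR and WKY held in all 21 alternatives (another normalization, pseudocounts of 1 and 64, other filters, plain eBayes, the replicate block, array weights, 1 model of all 23 arrays, a Gapdh 3′ to 5′ covariate, the mean of a gene's probe sets and each array left out). The number of called members was 2 to 4 with 1 array left out, 4 without SHR array 2. In dehydrated minus control it was 0 to 1 with 1 array left out (0 without control array 1 or 4 or dehydrated array 1 or 2), 0 with plain eBayes and 0 with only control arrays 3 and 4. In dehydrated minus fasted it was 1 with only those 2 groups fitted, and in fasted minus control it was 0 throughout. Under the replicate block the members called were the same number in each comparison, while calls over all probe sets were 1073 against 942 in SHR minus WKY, 3 against 4 in fasted minus control, 15 against 31 in dehydrated minus control and 1 against 6 in dehydrated minus fasted. Over all alternatives those calls ran from 514 to 1073, 0 to 6, 2 to 74 and 1 to 10.

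Directions turned only where no test was passed, and the cause was not tested. In SHR minus WKY these were Sst (-0.18 with the Gapdh covariate, -0.09 to 0.34 with 1 array left out) and Adcyap1 1368892_at (-0.33 to 0.05 with 1 array left out). In fasted minus control they were Penk (0.06 with quantile normalization, 0.02 with the covariate, -0.06 to 0.07 with 1 array left out), Npy (0.04 with the replicate block, -0.15 to 0.12), Calca 1370775_a_at (0.00 with the mean of probe sets), Calca 1369116_a_at (-0.03 to 0.23), Sst (-0.22 with control arrays 3 and 4, -0.02 to 0.36) and Tac1 (-0.22 to 0.06). In dehydrated minus control they were Npy (-0.10) and Sst (-0.03) with control arrays 3 and 4. In dehydrated minus fasted they were, with 1 array left out, Gal (-0.27 to 0.60) and Adcyap1 1368892_at (-0.29 to 0.30), both turned without dehydrated array 1, and Adcyap1 1394908_at (-0.00 to 0.19).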
